A study of Mus musculus with 7 samples.

Results

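Chil3, Ly6c2, Fn1, Plac8, Vcan, Cd44, Arg1 and Thbs1 are genes associated with monocytes that enter injured tissue and with macrophages engaged in its repair. They were followed by symbol through the RNA-seq libraries of microglia sorted from old and young ischemic mice. Each symbol matched 1 of the 50686 genes listed, and all 8 passed the filter on counts that left 17559 genes for testing. In old mice all 8 had a higher fitted level, and none passed an adjusted p of 0.05. The highest value of every one of the 8 genes came from the same old mouse, 3posI. Without it, Ly6c2 passed the threshold, as did 0.915% of the genes tested in that fit. Counted as 1 gene with its near-identical copy Ly6c1, it differed by 0.13 on the log2 scale without 3posI (adjusted p = 0.847, edgeR). The log2 fold change of Cd44 and Vcan was then below 0, and that of Thbs1 was near 0 in edgeR.

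The old group held 3 male C57BL/6 mice of 21 to 22 months and the young group 4 of 3 to 4 months. No animal is described as given PLX5622, the drug used in the study to deplete microglia. All 7 underwent middle cerebral artery occlusion, with the anesthesia and analgesia of that surgery, and were studied 4 days later. Forebrain cells were sorted by FACS with antibodies to CD11b and CD45, markers that monocytes and macrophages also carry, and the sorted microglia are described as CD45low CD11b+, a gate set to leave out leukocytes high in CD45 and cells without CD11b. Bodipy+ cells, which hold stained neutral lipid, were collected in both ages. Each library came from 1 mouse and is named here by its code, 14C, 18C, 23C and 29C for young and 2posI, 3posI and 4posI for old mice. The form of the code differs between the ages, so any difference in handling that it stands for cannot be told apart from age.

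Classical monocytes leave the bone marrow through Ccr2 and carry the surface protein Ly6C, encoded by Ly6c2. In a lesion they differentiate into macrophages, lose Ly6C and can take on a repair program in which arginase 1, encoded by Arg1, turns arginine into ornithine and urea. Fibronectin (Fn1), thrombospondin 1 (Thbs1) and versican (Vcan) are secreted into the matrix, and CD44 is the receptor for its hyaluronan. Resident microglia of healthy brain are known for low levels of Ly6c2 and Arg1.

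Total expected counts were 36574083 to 53002386 per library. All libraries carried microglia markers, with Fcrls at 1550.5 to 4211.7 CPM (counts scaled to the library total with TMM factors). Csf1r, the receptor for the growth factor on which microglia depend, was at 2049 to 6338 CPM. Monocytes and other macrophages also carry Csf1r, so its level does not tell microglia from them. Old mouse 3posI stood apart. The summed CPM of 12 microglia markers was 11410 there, against 22050 to 33310 in young mice, 26030 in 2posI and 24150 in 4posI, and 10 of the 12 markers had their lowest value in 3posI. In bulk RNA, fewer cells of a type and less RNA per cell cannot be told apart. Values from a fit without 3posI are therefore given beside the results for the 8 genes and for most of the related genes and lists.

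The sequences of Ly6c2 and its closest copy, Ly6c1, are shown because the measurement of Ly6c2 rests on telling the 2 genes apart. Both lie on the minus strand of chromosome 15. Their coding sequences in GENCODE vM21 have 396 bases each and differ at 9, an identity of 97.7%. The first 150 coding bases of each, counted from the A of the start codon, hold 6 of the 9 differences, given in capitals.
Ly6c2: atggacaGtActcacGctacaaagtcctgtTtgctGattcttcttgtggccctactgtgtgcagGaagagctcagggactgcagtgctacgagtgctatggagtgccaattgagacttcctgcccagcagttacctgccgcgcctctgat
Ly6c1: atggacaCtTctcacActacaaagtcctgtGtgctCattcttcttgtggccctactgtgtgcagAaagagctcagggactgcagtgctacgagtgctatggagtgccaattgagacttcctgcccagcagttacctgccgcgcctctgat
A run of 188 coding bases is identical in both genes, and 162 of 347 windows of 50 coding bases are the same. The share is smaller over whole transcripts. Of the 50-base windows of the 4 Ly6c2 transcripts 14.5% also occur in other genes, 13.9% in Ly6c1. A read that falls within such a window cannot be assigned by its sequence alone. RSEM divides it between the genes, and the expected count of Ly6c2 was not a whole number in any library, within a tolerance of 0.001.

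Upstream of their starts the 2 genes differ more visibly. Shown are the 250 bases before the start of each in RefSeq (GRCm38.p6, minus strand), chr15:75111972-75112221 for Ly6c2 and chr15:75048838-75049087 for Ly6c1, with matches to the searched motifs in capitals.
Ly6c2: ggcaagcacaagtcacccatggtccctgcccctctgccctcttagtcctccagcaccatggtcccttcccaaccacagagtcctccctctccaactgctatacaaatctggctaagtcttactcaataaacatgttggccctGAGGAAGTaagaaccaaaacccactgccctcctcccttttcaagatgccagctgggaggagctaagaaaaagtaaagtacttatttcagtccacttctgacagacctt
Ly6c1: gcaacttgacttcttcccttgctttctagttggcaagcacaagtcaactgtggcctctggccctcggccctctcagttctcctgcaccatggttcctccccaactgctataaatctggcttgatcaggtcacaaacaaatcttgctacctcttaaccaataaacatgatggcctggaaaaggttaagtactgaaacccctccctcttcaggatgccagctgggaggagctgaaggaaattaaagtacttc
Letters bound by myeloid factors were searched on both strands: GAGGAAGT for PU.1, TGANTCA for AP-1 and TTGCNNAA for C/EBP. Ly6c2 held the PU.1 letters once, starting 108 bases before its start, and the same letters were in 2.44% of 27025 RefSeq promoters. AP-1 letters were in 6.87% and C/EBP letters in 9.55% of these promoters, and in neither of the 2 shown. The promoters of Chil3, Plac8, Vcan and Cd44 held none of the 3 motifs, which says only that these letters are not in those windows.

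Ly6c2 (ENSMUSG00000022584, chromosome 15, 75108158 to 75111970 in GRCm38) had 2.85, 1.17, 1.21 and 0.94 CPM in young mice 14C, 18C, 23C and 29C. In old mice it had 15.3 CPM in 2posI, 162 in 3posI and 9.59 in 4posI. The lowest old value lay above the highest young value, as was the case for 8.7% of all genes tested. Old over young, Ly6c2 differed by 5.33 on the log2 scale (SE 1.01, n = 3 and 4, adjusted p = 0.0539 over all genes in edgeR). Without 3posI the difference was 3.01 (SE 0.43, adjusted p = 0.0295 in edgeR) and passed the threshold, as did 0.915% of the genes tested in that fit. The values rested on at least 43.5 expected counts in every young mouse, at most 132, and on 514, 6352 and 444 in 2posI, 3posI and 4posI.

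Ly6c1, a gene better known from endothelial and lymphoid cells, ran the other way. It had 17.5, 8.44, 17.3 and 18.2 CPM in young mice, and 5.89, 7.23 and 6.34 CPM in 2posI, 3posI and 4posI. The groups did not overlap, with a difference of -1.24 on the log2 scale (SE 0.28, adjusted p = 0.0768 in edgeR), and of -1.33 (SE 0.32, adjusted p = 0.0968) without 3posI. On the TPM scale, which accounts for gene length and allows genes to be compared, Ly6c2 was at 0.184, 0.166, 0.0835 and 0.0614 of the level of Ly6c1 in 14C, 18C, 23C and 29C. In 2posI, 3posI and 4posI it was at 3.04, 26.2 and 1.53 times that level. Ly6c1 was therefore the more abundant of the pair in every young mouse and Ly6c2 in every old mouse. The difference in mean log2 ratio was 5.47 (young -3.16 ± 0.77, SD, n = 4, and old 2.31 ± 2.14, SD, n = 3). The share of Ly6c2 in the counts given to the pair was 14.0%, 12.2%, 6.55% and 4.88% in young mice, and 72.2%, 95.7% and 60.2% in old ones.
The sum of both genes, which does not depend on how reads were divided between them, overlapped between the ages. It was 20.4, 9.61, 18.5 and 19.2 CPM in young mice and 21.2, 170 and 15.9 CPM in 2posI, 3posI and 4posI. Counted as 1 gene, the pair differed by 2.03 on the log2 scale in edgeR (adjusted p = 0.196), and by 0.13 without 3posI (adjusted p = 0.847). How far the division of shared reads contributes to the 2 opposite differences was not tested.

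**Figure D1:**
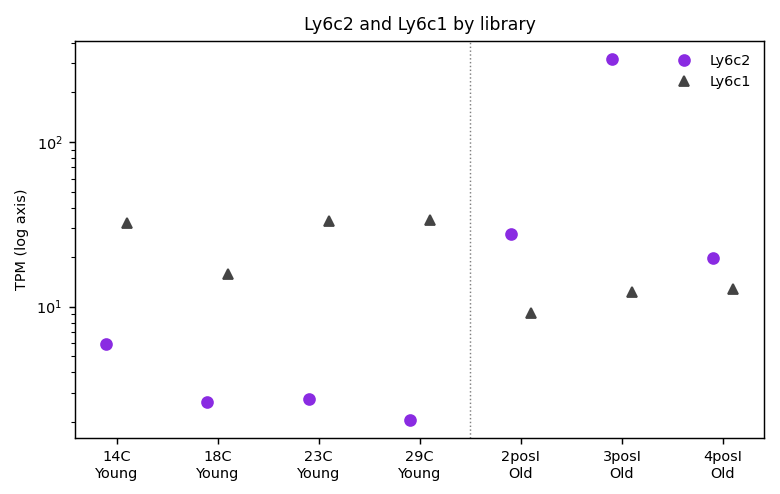
TPM of Ly6c2 (violet circles) and Ly6c1 (grey triangles) in each of the 7 libraries, on a log axis, with a dotted line between young and old. Ly6c1 lies above Ly6c2 in all 4 young libraries and below it in all 3 old libraries.

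Plac8 (ENSMUSG00000029322, chromosome 5, 100553725 to 100572245), a small cysteine-rich protein of myeloid and lymphoid cells, had no window shared with another gene. Its level was 1.75, 2.35, 0.92 and 4.56 CPM in 14C, 18C, 23C and 29C. In old mice it was 6.91 CPM in 2posI, 86.2 in 3posI and 11.7 in 4posI. All old libraries again lay above all young ones, with the highest young value in 29C, a library that was lowest or next to lowest for Ly6c2, Chil3 and Arg1. edgeR put the difference at 3.87 on the log2 scale (SE 0.89, adjusted p = 0.0851), and at 1.96 without 3posI (SE 0.52, adjusted p = 0.121). The counts, all whole, were 81, 105, 47 and 212 in young mice and 232, 3373 and 540 in old ones.

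Chil3 (ENSMUSG00000040809, chromosome 3, 106147554 to 106167564) encodes Ym1, a chitinase-like secreted protein of monocytes and alternatively activated macrophages. It had 50.4, 7.76, 15.5 and 11.0 CPM in young mice. In old mice it had 26.0, 1426 and 68.9 CPM in 2posI, 3posI and 4posI. Young mouse 14C lay above old mouse 2posI, so the groups overlapped. The difference in edgeR was 4.58 on the log2 scale (SE 1.31, adjusted p = 0.130) and became 1.17 (SE 0.69, adjusted p = 0.417) without 3posI, which alone held 93.8% of the summed CPM of the 3 old mice. Of its 50-base windows 26.9% also occur in other genes, 16.9% in Chil4 (Ym2), yet Chil4 was counted in 3posI alone, at 0.15 CPM, and listed at 0 in the other 6 libraries.

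Arg1 (ENSMUSG00000019987, chromosome 10, 24915221 to 24927484) varied most among young mice. It had 70.1 CPM in 14C, 0.58 in 18C, 25.8 in 23C and 1.33 in 29C, a 120-fold span within 1 age. In 2posI, 3posI and 4posI it had 67.0, 1148 and 8.87 CPM. Old mouse 4posI lay below young mice 14C and 23C, and 14C lay above 2posI. On the log2 scale the ages differed by 4.06 (SE 1.78, adjusted p = 0.264 in edgeR), and by 0.63 when 3posI was left out (SE 1.47, adjusted p = 0.859 in edgeR). Its counts ran from 26 to 44925 and were whole in all libraries, so that the span rests on many reads in 14C and on few in 18C.

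Thbs1 (ENSMUSG00000040152, chromosome 2, 118111876 to 118127133), a matrix glycoprotein that binds CD47 and CD36 and can activate latent TGF-beta, took 50.1% of the summed CPM of the 8 genes in 3posI. CPM is not scaled to gene length, and by TPM Thbs1 stood below Chil3 and Arg1 in 3posI. It had 512, 49.5, 272 and 50.4 CPM in 14C, 18C, 23C and 29C, and 241, 3969 and 190 CPM in 2posI, 3posI and 4posI. Both 14C and 23C lay above 2posI and 4posI. In edgeR a log2 difference of 2.73 (SE 1.20, adjusted p = 0.263) became -0.04 (SE 0.86, adjusted p = 0.988) without 3posI, where limma-voom gave 0.66 (adjusted p = 0.745). An antisense gene, Gm29233, overlaps Thbs1 over 1.89% of its windows. The libraries carry no strand, so reads there cannot be told apart, but Gm29233 was given at most 24.5 counts in a library.
Across the 7 libraries Arg1 and Thbs1 had nearly the same order. From low to high, both ran 18C, 29C, 4posI, then 23C and 2posI in either order, then 14C and 3posI. Pearson's r of their log2 CPM was 0.97 (n = 7 libraries), and 0.95 over the 6 libraries without 3posI. For Arg1 and Plac8 it was 0.54, and -0.09 without 3posI. These are descriptions of 7 mice that differ in age, and all 28 pairs of the 8 genes were computed.

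**Figure D2:**
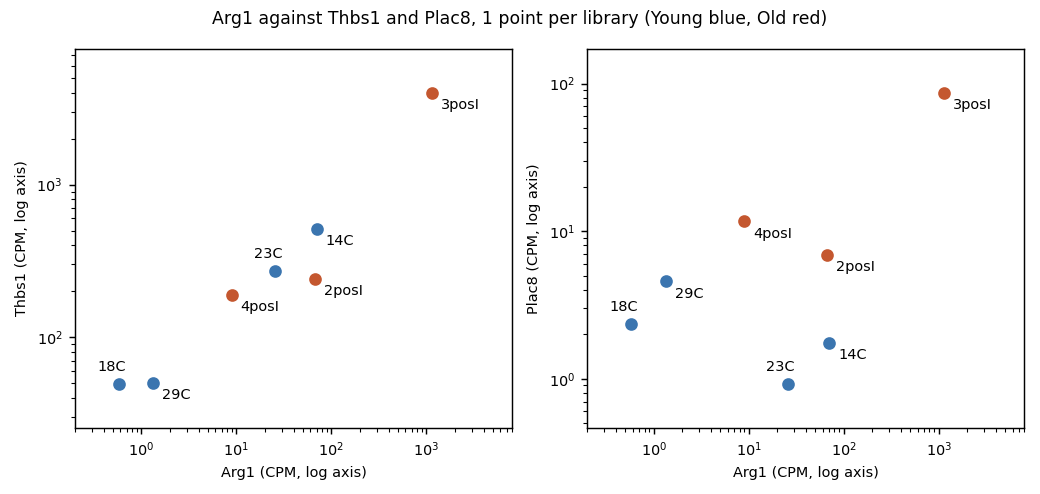
CPM of Arg1 on the x axis against Thbs1 (left) and Plac8 (right), both axes logarithmic, with 1 labelled point per library, young in blue and old in red. The points of Arg1 and Thbs1 fall near a rising line over both ages, while in the right panel the 3 old points lie above all 4 young ones at any Arg1 level.

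Fn1 (ENSMUSG00000026193, chromosome 1, 71585520 to 71653200), which encodes fibronectin, differed least. Its level was 405, 166, 190 and 199 CPM in young mice and 383, 854 and 110 CPM in 2posI, 3posI and 4posI. Old mouse 4posI had the lowest value of all 7 and 3posI the highest. The fitted difference was 0.90 on the log2 scale (SE 0.58, adjusted p = 0.434 in edgeR), and 0.04 with 3posI left out (SE 0.50, adjusted p = 0.977 in edgeR).
Vcan (ENSMUSG00000021614, chromosome 13, 89655312 to 89742509), the hyaluronan-binding proteoglycan versican, was scarce, with 0.43, 0.20, 2.00 and 0.58 CPM in young mice and 0.69, 9.97 and 0.37 in 2posI, 3posI and 4posI. These values rest on 9 to 102 counts in young mice, and on 23, 390 and 17 in old ones. Its log2 difference in edgeR was 2.18 (SE 1.13, adjusted p = 0.337) with all mice and -0.62 (SE 0.89, adjusted p = 0.760) without 3posI. At this depth no difference between the ages was detectable outside 3posI.
Cd44 (ENSMUSG00000005087, chromosome 2, 102811141 to 102901665) had 53.8, 21.5, 66.1 and 29.6 CPM in young mice and 38.7, 262 and 36.1 CPM in old mice. Old mice 2posI and 4posI lay within the young range. edgeR gave a log2 difference of 1.39 (SE 0.70, adjusted p = 0.326), and -0.19 (SE 0.40, adjusted p = 0.841) without 3posI. Cd44 is a gene of many spliced forms, and RSEM's mean transcript length for it, weighted by the estimated share of each form, was 4186, 4102, 4040 and 4267 bases in 14C, 18C, 23C and 29C, and 4866, 4652 and 4447 bases in 2posI, 3posI and 4posI, without overlap. This length, looked at after the values were seen, lay higher in all old than in all young mice for 13.8% of 10979 genes with a varying length, so Cd44 is one of many.

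**Figure D3:**
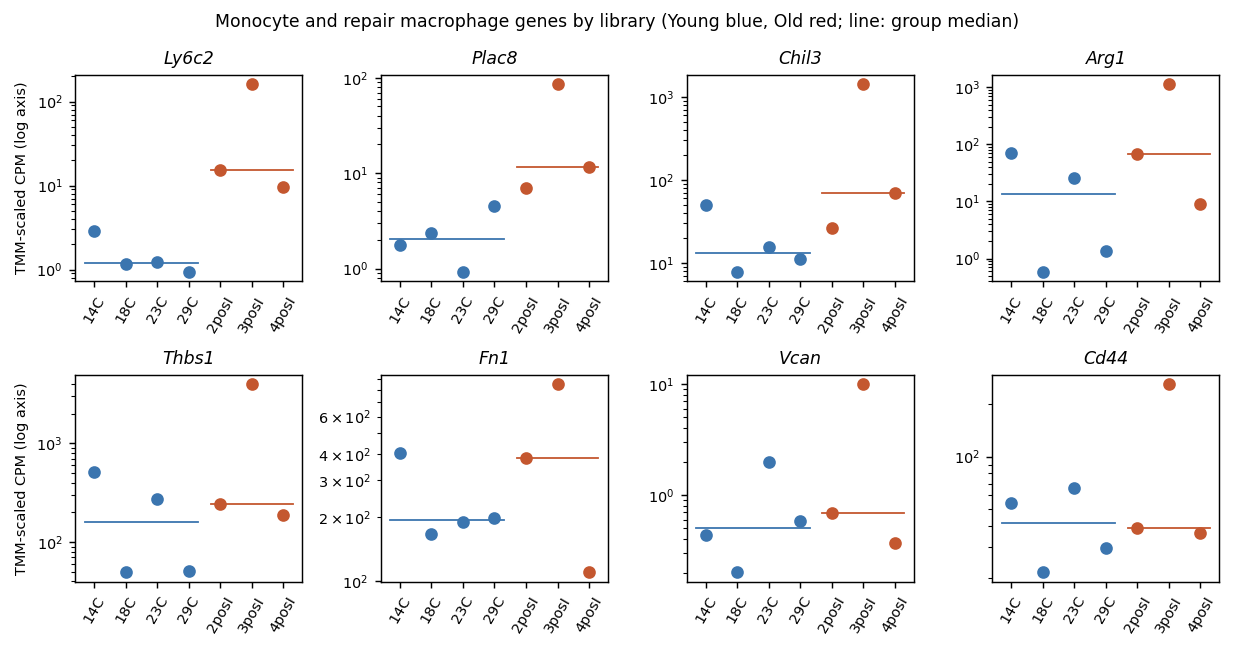
TMM-scaled CPM of each of the 8 genes in each library, on log axes that differ between panels, with young libraries in blue, old libraries in red and a line at each group's median. In all 8 panels 3posI is the highest point, and in the panels of Ly6c2 and Plac8 the other old points also lie above every young point.

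Seen together, the 8 genes summed to 1096, 249.3, 573.6 and 297.6 CPM in 14C, 18C, 23C and 29C, and to 779, 7917 and 435 CPM in 2posI, 3posI and 4posI. Young mouse 14C thus exceeded 2 of the 3 old mice. The level in 3posI was 2.11 times (Fn1) to 20.7 times (Chil3) that of the next library. By TPM, Fn1 or Thbs1 was the most abundant of the 8 in young mice and in 2posI, and Chil3 in 3posI and 4posI. Vcan was the least abundant in all 7 libraries.
With all libraries the median log2 fold change of the 8 genes was 3.30, against -0.01 over all genes tested. None was among the 141 genes that passed (0.803% of those tested, 100 higher and 41 lower), and 4 (Chil3, Ly6c2, Plac8 and Thbs1) had an unadjusted p under 0.05, as did 18.9% of all genes. Ly6c2 and Plac8 were the 2 genes without overlap. Both passed under DESeq2 (adjusted p = 6.85e-05 and 0.00379), which called 7.97% of all genes and gave no adjusted p for Chil3, Thbs1 and Vcan, and without a filter on low counts in edgeR (adjusted p = 0.0136 and 0.0308), where 1.05% passed.
Without 3posI the median was 0.34. Of the 8 genes 5 were then higher and 3 lower in old mice, 1 passed, and Ly6c2 and Plac8 had both old libraries above all young ones, as 13.9% of all genes did.

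**Figure D4:**
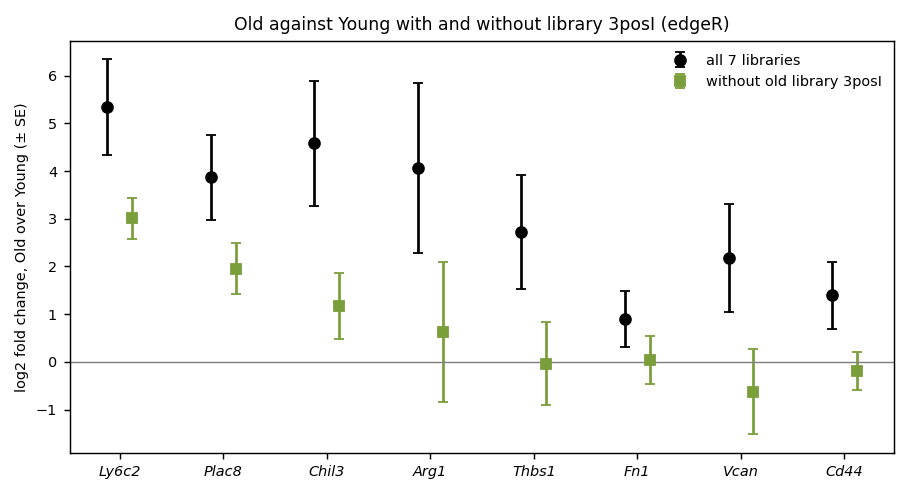
Log2 fold change of old over young mice (edgeR, with SE) for each of the 8 genes, with all 7 libraries (black circles) and without old mouse 3posI (green squares). Every value is lower without 3posI, and only Ly6c2, at 3.01, passed the threshold then.

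The other genes of classical monocytes were as one-sided. Of 13 such genes all 13 had a higher fitted level in old mice, with a median log2 fold change of 2.81, and all 13 were highest in 3posI. Without it all 13 were still higher, with a median of 0.63 against -0.02 over all genes. Klra2, a lectin-like receptor of the Ly49 family, passed the threshold. It rose from 0.43, 0.49, 0.33 and 0.45 CPM in young mice to 3.04, 11.9 and 1.73 CPM in 2posI, 3posI and 4posI (log2 fold change 3.69, SE 0.63, adjusted p = 0.0458, edgeR). It also passed without 3posI (2.47, SE 0.41, adjusted p = 0.0425, edgeR). Over all genes tested, 0.803% passed with all libraries and 0.915% without 3posI.
Ms4a4c, of a family of membrane proteins, had 7.04 to 25.5 CPM in young and 36.4, 235 and 27.5 CPM in old mice, a log2 difference of 2.75 (SE 0.76, adjusted p = 0.123 in edgeR), or 1.11 (SE 0.43, adjusted p = 0.235) without 3posI. In Ms4a4c, as in Klra2 and Napsa, no old library overlapped the young ones. Of the 13 genes 4 had every old library above every young one, as did 8.7% of all genes tested.

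The other repair macrophage genes were less uniform. Of 22 such genes 21 were tested, with 19 higher and 2 lower in old mice, none called, and a median log2 fold change of 1.25. Without 3posI the median was 0.10, with 12 higher and 9 lower. The smallest p belonged to a gene that was lower, Igf1, the trophic factor made by microglia. It had 168 to 368 CPM in young mice and 90.6, 40.1 and 46.0 CPM in 2posI, 3posI and 4posI (log2 fold change -1.93, SE 0.39, adjusted p = 0.0618, edgeR), and the fit without 3posI gave -1.71 (adjusted p = 0.0970, edgeR). Vegfa, which encodes an angiogenic factor, had 0.60 to 1.73 CPM in young and 2.77, 35.4 and 3.65 CPM in old mice (3.56, SE 0.89, adjusted p = 0.0973, edgeR), and 1.44 (SE 0.46, adjusted p = 0.169) without 3posI. Slpi, a secreted inhibitor of leukocyte proteases, had 0.25 to 1.78 CPM in young and 2.18, 54.7 and 2.72 CPM in old mice (4.41, SE 1.16, adjusted p = 0.112, edgeR), and 1.39 (SE 0.62, adjusted p = 0.293) without 3posI. In both genes the other old mice still lay above all young ones. This held for 3 of the 21 tested genes of the list and for 13.9% of all genes.

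Receptors and partners of the matrix genes were split in direction between the ages. Of 26 genes 23 were tested, 11 higher and 12 lower in old mice, with a median log2 fold change of -0.09, or -0.50 with 7 higher and 16 lower without 3posI. None passed in either fit. Of all 26 genes 12 had their highest value in 3posI and 2 their lowest. Cd47 and Cd36, whose products bind thrombospondin 1, were among the 12, at 285 and 138 CPM in 3posI. Their log2 differences were 0.55 and 1.20 (adjusted p = 0.203 and 0.382, edgeR), and 0.28 and 0.10 without 3posI. The 3 genes with the smallest p were all lower in every old than in every young library, as were 9.06% of all genes tested. Tgfb1, whose latent product thrombospondin 1 can activate, had 19.4 to 36.9 CPM in young and 10.0, 10.7 and 15.5 CPM in old mice (log2 fold change -1.15, SE 0.26, adjusted p = 0.0778, edgeR). Itga5, the integrin chain that binds fibronectin, had 145 to 252 CPM in young and 54.0, 122 and 120 CPM in old mice (-0.93, SE 0.30, adjusted p = 0.163, edgeR). Sdc4, a fibronectin-binding proteoglycan, had 302 to 392 CPM in young and 106, 179 and 285 CPM in old mice (-0.93, SE 0.30, adjusted p = 0.158, edgeR). Without 3posI the log2 differences were -1.07 for Tgfb1, -1.11 for Itga5 and -0.89 for Sdc4, with adjusted p of 0.124, 0.151 and 0.239 in edgeR.

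Around Arg1, 11 of 13 genes of arginine metabolism were tested, with 8 higher and 3 lower, none called, and a median log2 fold change of 0.29. Without 3posI 6 were higher and 5 lower, with a median of 0.10 and none called. The 3 with the smallest p were all higher in every old library, as were 8.7% of all genes tested. Gatm, which draws on arginine for creatine synthesis, had 187 to 254 CPM in young and 444, 293 and 378 CPM in old mice (0.71, SE 0.17, adjusted p = 0.0964, edgeR). Ass1 and Asl rebuild arginine from citrulline. Ass1 had 9.06 to 19.5 CPM in young and 19.6, 36.8 and 29.4 CPM in old mice (1.22, SE 0.31, adjusted p = 0.0989, edgeR). Asl had 42.0 to 48.1 CPM in young and 55.3, 66.5 and 50.4 CPM in old mice (0.32, SE 0.13, adjusted p = 0.214, edgeR). In the fit without 3posI the log2 difference was 0.85 for Gatm, 1.00 for Ass1 and 0.21 for Asl, with adjusted p of 0.0549, 0.163 and 0.409 in edgeR. Agmat, which acts on the arginine product agmatine, was listed at 0 in all libraries.

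Among relatives of the 8 genes, 14 of 20 were tested and 7 were higher, 7 lower and none called, with 5 higher, 9 lower and none called without 3posI. Thbs2, the closest relative of Thbs1, had 13.7 to 29.5 CPM in young and 11.1, 8.10 and 8.92 CPM in old mice, below all young libraries (-1.16, SE 0.28, adjusted p = 0.0895, edgeR), and -1.06 (adjusted p = 0.144, edgeR) without 3posI. Arg2, the mitochondrial arginase, had 0.50 to 4.22 CPM in young mice and 2.97, 59.7 and 1.5 CPM in old mice (3.20, SE 1.28, adjusted p = 0.227, edgeR), and -0.06 on the log2 scale without 3posI. Of the Ly6 family, Ly6i had 1.08 to 3.36 CPM in young and 5.25, 12.6 and 4.98 CPM in old mice (1.87, SE 0.46, adjusted p = 0.0968, edgeR), and 1.30 (adjusted p = 0.169, edgeR) without 3posI. Ly6a (1.03, SE 0.40, adjusted p = 0.214, edgeR) and Ly6e (0.09, SE 0.22, adjusted p = 0.858, edgeR) overlapped between the ages, as did Chil1, Bcan, Comp and Lyve1 with adjusted p (edgeR) of 0.217 to 0.644. Chil6 and Plac8l1 were listed at 0 in all libraries.

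Markers of other cells that such a sort could hold were summed for each library, although the CD45low CD11b+ gate is set to leave out most leukocytes and cells without CD11b. Those of border-associated macrophages, led by Ms4a7 and F13a1, summed to 190 to 522 CPM in young mice and to 632, 1618 and 208 CPM in 2posI, 3posI and 4posI, with 8 of 8 higher in old mice and none called. Their median log2 fold change was 0.93, and 0.24 with 6 of 8 higher without 3posI. F13a1 alone had 500 CPM in 3posI, and of the 8 genes 6 were highest in 3posI and 2 in 2posI. The level in 3posI was uneven over the list, with Folr2 at 95.8 CPM against 88.6 in 2posI. Cd163 had 23.2 CPM in 3posI and 27.4 in 2posI. Dendritic cell markers, led by Ccr7 and Cd209a, summed to 6.28 to 10.8 CPM in young and 15.4, 63.3 and 16.9 CPM in old mice, with 5 of 8 higher and none called, and Ccr7 alone reached 44.8 CPM in 3posI. The median of that list was 1.62, and 1.10 without 3posI. Neutrophil markers, led by Csf3r and S100a8, summed to 189 to 461 CPM in young and 289 to 341 CPM in old mice, overlapping (9 of 11 higher, none called, median 0.74, or 0.36 with 8 higher without 3posI), and Ly6g, which defines neutrophils, had at most 0.31 CPM. Csf3r, which myeloid cells other than neutrophils also express, made up most of this sum in every library but 3posI, where it had 171 CPM. Without Csf3r, a choice made after the values were seen, the sum was 17.5 to 154 CPM in young mice and 53.1, 171 and 76.8 CPM in 2posI, 3posI and 4posI, highest in 3posI. Lymphocyte markers, led by Cd79b and Cd4, summed to 23.1 to 25.2 CPM in young and 32.1, 17.4 and 25.9 CPM in 2posI, 3posI and 4posI, with 8 of 10 tested genes higher and none called. That sum rested on Cd79b and Cd4. The other lymphocyte genes, set apart after the values were seen, summed to 0.418 to 0.858 CPM in young and 0.552, 2.98 and 3.46 CPM in old mice, and the median log2 fold change of the list was 2.45, and 3.00 without 3posI. Cd8a, of cytotoxic T cells, had 0 to 0.0196 CPM in young and 0.284, 0.256 and 0.518 CPM in old mice (adjusted p = 0.0565, edgeR, and 0.0754 without 3posI). Nkg7, of cytotoxic lymphocytes, had 0.0224 to 0.137 CPM in young and 0.209, 0.409 and 1.21 CPM in old mice (adjusted p = 0.108, edgeR, and 0.124 without 3posI). Both were thus higher in every old than in every young library, as were 8.7% of all genes tested, at levels of few counts. They were the 2 of the 10 tested lymphocyte genes without overlap. Cd3d, Cd3e and Cd3g were listed at 0 in old mouse 2posI, and Klrb1c and Cd79b had a lower fitted level in old mice.
Of cells outside the myeloid lineage, fibroblast markers, led by Col1a1 and Dcn, summed to 32.3 to 285 CPM in young and 8.46, 40.5 and 6.67 CPM in old mice. All 6 tested were lower and none called, with a median log2 fold change of -2.53, and -4.00 without 3posI. Endothelial and mural markers, led by Cldn5 and Flt1, summed to 66.0 to 135 CPM in young and 58.2 to 94.2 CPM in old mice, with 4 of 10 higher. Markers of neurons and glia, led by Cspg4 and Mbp, summed to 113 to 195 CPM in young and 97.5 to 187 CPM in old mice, with 5 of 9 tested higher, and none of either list was called. The microglia markers had 3 of 11 tested higher and 8 lower, none called, with a median of -0.36, and 5 higher and 6 lower with a median of -0.06 without 3posI. The part of these markers in the differences of Ly6c2, Plac8 and the other 6 genes was not tested.

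**Figure D5:**
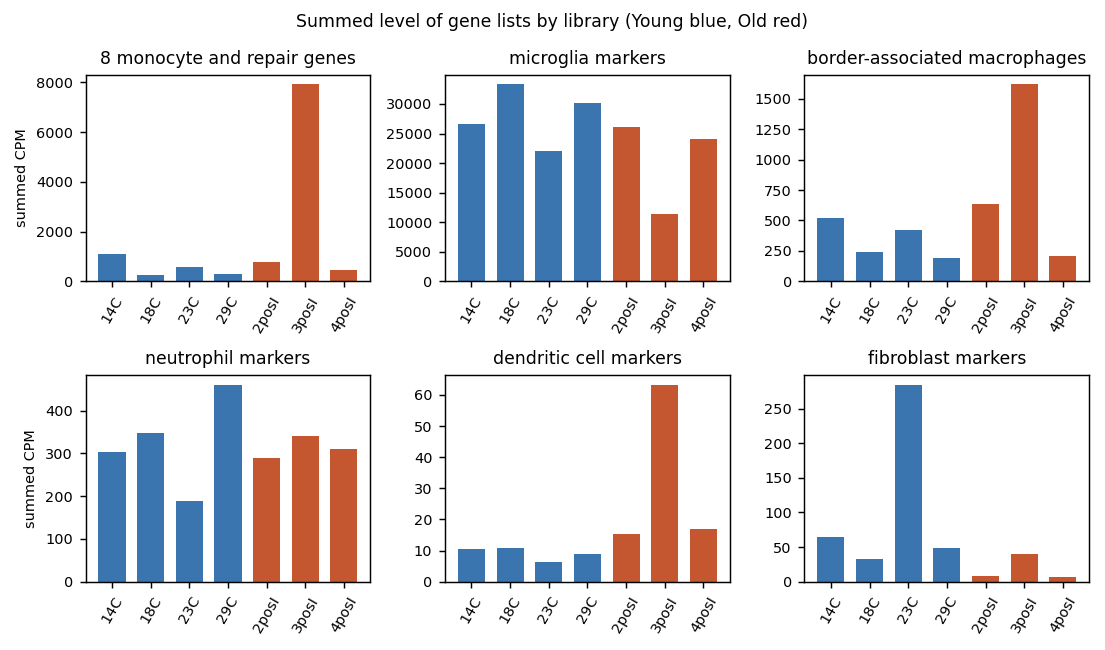
Summed CPM, from 0, of the 8 monocyte and repair genes and of 5 marker lists in each library, young in blue and old in red, with a separate scale in each panel. In 3posI the 8 genes (7917) and the border-associated macrophage markers (1618) are highest and the microglia markers (11410) lowest, while neutrophil markers there (341, of which Csf3r gives 171) lie within the young range.

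For each of the 8 genes, the tested genes with a mean of at least 10 CPM were ranked by Pearson's r of log2 CPM over the 7 libraries, among 8145 genes. With so many genes and 7 libraries, of which 3posI is extreme, high values are frequent, and the ranking is a description. Nearest to Ly6c2 were H2-Ab1, a class II antigen-presenting chain (r = 0.997), and Slc45a4 (0.993). Nearest to Chil3 were S100a4, a calcium-binding protein on the list of monocyte genes (0.986), and Adssl1 (0.981). For Thbs1 they were 4930430E12Rik (0.992) and Emb, another of the monocyte genes (0.991), and for Cd44 Nr4a2, an immediate early nuclear receptor (0.995), and Dmxl2 (0.991).
Arg1 was nearest to Tmem37 (0.990) and Mgst1 (0.987), and Plac8 to Eif3m (0.986) and Pcnx (0.969). Vcan was nearest to Trnau1ap (0.988) and Atg13 (0.986), and Fn1 to Ube2q2 (0.970) and Snx11 (0.952). No gene appeared for more than 1 of the 8.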

How the data were processed

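Microglia of 7 ischemic male mice were sequenced with a low-input, non-stranded Smart-seq2 protocol. The authors trimmed reads with skewer, checked them with FastQC 0.11.5, aligned them with STAR to GRCm38 and ran RSEM on GENCODE m15, and they deposited expected counts, TPM and FPKM values. The expected counts were deposited without normalization. TPM as deposited by the authors, scaled within each library, served for levels between genes and 3 alternatives, and FPKM was not used. For STAR and RSEM the sources used here name no version.

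Expected counts were rounded. Genes above 10 counts in at least 1 library were kept, and X, Y and mitochondrial genes removed, with chromosomes and coordinates from GENCODE vM21 (224 of 50686 identifiers not found). In R 4.3.3, edgeR 4.0.16 gave TMM-scaled CPM and the quasi-likelihood test of age, with Benjamini-Hochberg adjustment over all genes tested. No batch or pairing is labelled. Alternatives used limma 3.58.1, DESeq2 1.42.0, other factors and filters, an effective-length offset, summed copies and each library left out. Promoters came from RefSeq (GRCm38.p6).

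The 8 genes and all lists were chosen with earlier results of these data known. Named are the 8 genes, in each related list the called genes and the 3 smallest p, relatives with a near-identical copy or at least 1 TPM, the 2 most abundant genes of each marker list, genes at 0, and the 2 genes most like each of the 8. Some genes that this rule names are not reported here. No molecular identifiers are stated, so counts may include PCR copies.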

Additional observations from a re-analysis of the deposited data

Results flagged for a closer look

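Among 22 values looked at in young mice (the 8 genes and 14 summed lists), 4 had 1 library that lay apart: its distance to the nearest library, divided by the whole range, exceeded the critical value of Dixon at the 95% level, which chance alone exceeds for about 1 in 20 groups, or 1.1 of 22. For Ly6c2 (0.855) and Fn1 (0.862) it was 14C, which was the highest young library in both. For the summed fibroblast markers (0.874) and the summed neuron and glia markers (0.861) it was 23C. Groups of 3 libraries were not examined in this way, so the distance of old mouse 3posI from the other old mice carries no such value.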

How the results depend on the processing

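The number of genes called over the whole table, 141, moved to 318 with limma-voom and sample quality weights, 1399 with DESeq2, 288 without a filter on low counts, 64 and 71 on log2(TPM + 1) and log2(TPM + 0.1) in limma, and 16 on log2(TPM + 1) without a filter. With each library left out it ranged from 1 (without 14C, 18C or 2posI) to 159 (without 3posI), with 2 without 29C, 14 without 23C and 85 without 4posI. DESeq2 without 3posI, a setting chosen after seeing the data, called 1220. Of the 8 genes, 0 passed with all libraries, 2 with DESeq2 and with no filter, 1 with the effective-length offset (Ly6c2), and 0 to 1 with each library left out, the 1 being Ly6c2 without 3posI or without 4posI (adjusted p = 0.0295 and 0.0460, edgeR). Among the settings chosen after seeing the data, limma-voom without 3posI called 1 and DESeq2 without 3posI called 2. Without 3posI the sign turned for Cd44 (-0.19 in edgeR, -0.0594 in limma-voom, -0.19 in DESeq2), Vcan (-0.62, -0.27 and -0.62) and Thbs1 (-0.0356 in edgeR, -0.0329 in DESeq2), while limma-voom without 3posI gave 0.66 for Thbs1. With each library left out in edgeR, the log2 fold change ranged from -0.19 to 1.81 for Cd44, from -0.0356 to 3.56 for Thbs1 and from -0.62 to 3.17 for Vcan. Fn1 was at -0.11 in limma-voom without 3posI and at -0.0038 in limma-voom with quality weights. The cause was not tested. Of 177 values of single genes under alternatives, 3 had no adjusted p from DESeq2. Of the other 174, 154 kept direction and side of the threshold, 10 turned in sign and 10 passed the threshold, the last all for Ly6c2 (7) or Plac8 (3). With all libraries, the 8 genes were higher in old mice in each of 13 settings apart from Fn1 in limma-voom with quality weights. The adjusted p ranged from 2.44e-08 to 0.847 over 23 settings for Ly6c2, the highest with Ly6c1 and Ly6c2 summed and 3posI left out, a setting chosen after seeing the data, and from 0.00379 to 0.242 over 22 settings for Plac8. No paired analysis was possible because the library codes share no number between ages. Vcan, Klra2 and Ly6c2 in young mice are near the lower end of what this depth resolves.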
